A study of Mus musculus with 6 samples.

Results

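Open chromatin in mouse embryonic stem cells was examined at clusters of closely spaced accessible regions. Peaks of 6 ATAC-seq libraries were merged where they overlapped, and regions called in all 6 libraries were chained along each chromosome wherever the gap to the next such region was 5000 bp or less. The 1067 regions that sat in chains of 6 or more were taken as members. They formed 153 chains and made up 1.36% of the 78451 regions called in all 6 libraries on the 16 autosomes used, which leave out chromosomes 6, 8 and 11. The members were chosen by measured values, namely the peak calls and their spacing, so neither the number of calls nor the closeness of members is a finding here. In the whole data set, 259376 mouse regions were merged and 99216 of them were called in all 6 libraries.

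Regulatory DNA that is bound by transcription factors is depleted of nucleosomes, and a transposase inserts into it more readily than into packed chromatin. Stretches where many such sites lie close together include clusters of enhancers, which in embryonic stem cells are known at genes of the pluripotency network, and families of neighbouring genes whose promoters are all open. ALKBH5 is an enzyme that removes the methyl group of N6-methyladenosine from RNA.

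The cells were E14TG2a, an established mouse embryonic stem cell line. The 3 genotypes were an Alkbh5 knockout (KO), an allele named Alkbh5 del-cIDR, in which a part named cIDR is deleted (an IDR being an intrinsically disordered region), and wild type (WT), with 2 libraries each. The culture was the same for all: 15% serum, the cytokine LIF at 1000 U/ml, and inhibitors of MEK (PD0325901, 1 µM) and of GSK3 (CHIR99021, 3 µM). Each reaction also received 10 µl of nuclei added as a spike-in. The labels do not say whether a genotype stands for more than 1 clone or whether its 2 libraries came from separate cultures, so the p-values below measure the spread between libraries only, which may be technical.

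The 2 KO lists held 164639 and 150680 mouse peaks, the 2 del-cIDR lists 157931 and 155128, and the 2 WT lists 193905 and 184884. The total number of reads per library is unknown. The height of a peak is given in tags, the number of sequenced fragments stacked at its summit, and was solved from the fold and the p-value that the authors deposited for each peak. The median height over whole lists was 21 and 17 tags in KO, 20 and 20 tags in del-cIDR, and 18 and 21 tags in WT. Since depth differs between lists, genotypes were compared on relative height, which is the log2 height of a region minus the median log2 height of the 78451 regions in the same list. Marker promoters of embryonic stem cells and of feeder cells could not be placed, because no gene annotation of the build of the peak lists (GRCm39) was used here. Chains are named below only where a gene or element is known to lie; these names rest on general knowledge of gene positions, were checked in a gene table for symbol and chromosome alone, and do not place a member at a promoter.

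With 10 members, the chain at chr7:3241222-3271267 lay at the known position of the miR-290 cluster, which encodes the most abundant microRNAs of mouse embryonic stem cells. Mature 3p sequences of the cluster are printed because they are the product by which this locus is known. The 6 shown are those found by the search used here and are not every 3p sequence of the cluster. Capitals mark the seed, bases 2 to 8, which pairs with target messenger RNAs. The sequences are from RefSeq (GRCm38.p6).
mmu-miR-290a-3p: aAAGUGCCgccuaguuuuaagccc
mmu-miR-291a-3p: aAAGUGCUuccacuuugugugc
mmu-miR-291b-3p: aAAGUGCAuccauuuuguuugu
mmu-miR-293-3p: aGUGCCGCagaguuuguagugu
mmu-miR-294-3p: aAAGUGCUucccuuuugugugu
mmu-miR-295-3p: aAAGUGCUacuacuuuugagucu
The seed AAGUGCU was shared by 3 of the 6 printed. The seeds of miR-290a-3p and miR-291b-3p start with the same 6 bases, and the seed of miR-293-3p differs from the others printed.

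Histone genes held the most chains of any named locus: 5 chains with 50 members lay at the known positions of the replication-dependent histone genes of chromosome 13, which supply core and linker histones during DNA synthesis. Of the 51 RefSeq promoters of these genes (GRCm38.p6, 250 bases before to 50 after the start), 43 held the letters CCAAT on either strand, or 84.3%, against 37.4% of all 32851 promoters in the table. Every H1, H2A, H2B and H3 promoter held these letters, but only 3 of 11 H4 promoters did (27.3%). The octamer ATGCAAAT, which POU factors such as OCT1 and OCT4 bind, was present on either strand in 6 of 14 H2B promoters and 5 of 13 H2A promoters, against 1.74% of all promoters. None of the 6 H1, 7 H3 and 11 H4 promoters held it. The letters TATAAA were in 60.8% of the histone promoters and in 13.6% of all. The letters GGGCGG were in 37.3% of the histone promoters and in 35.7% of all. A match is a description of these letters and does not show that a factor was bound. The 150 bases before the start are shown for the first 3 H2B genes, by gene number, that hold the octamer there, with CCAAT, the octamer and TATAAA, on either strand, in capitals.
H2bc3: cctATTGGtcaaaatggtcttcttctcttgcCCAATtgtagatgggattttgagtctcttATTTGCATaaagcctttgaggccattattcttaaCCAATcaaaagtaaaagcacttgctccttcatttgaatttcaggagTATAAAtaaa
H2bc6: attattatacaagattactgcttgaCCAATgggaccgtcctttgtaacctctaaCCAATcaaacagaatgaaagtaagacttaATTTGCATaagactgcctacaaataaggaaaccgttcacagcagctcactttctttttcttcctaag
H2bc8: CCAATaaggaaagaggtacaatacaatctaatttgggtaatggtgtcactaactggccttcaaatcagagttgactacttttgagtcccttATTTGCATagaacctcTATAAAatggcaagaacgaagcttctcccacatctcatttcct
All 3 held the octamer downstream of at least 1 CCAAT box.

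The 153 chains spanned 8.09 to 38.7 kb, with a median of 18.3 kb, and covered 2.90 Mb in all. There were 81 chains of 6 members, 36 of 7, 15 of 8, 12 of 9 and 9 of 10 or more. Neighbouring members were a median of 2476 bp apart, and members covered a median of 20.1% of the span, so that most of a chain was sequence between peaks. Near the limits of the rule, 121 of 914 gaps inside chains measured 4500 to 5000 bp, and 27 of the 306 gaps on the flanks of chains were above 5000 bp by 500 bp or less. The 486 regions in chains of exactly 6 had a median height of 48.2 tags (mean over libraries), and the 1265 regions in chains of 5, which the rule left out, had 41.8 tags. Chromosome 19 had the greatest share of its regions in chains of 6 or more, 3.18%, and chromosome 16 the smallest, 0.518%.

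Within a chain the members were unequal. The tallest member was a median of 4.31 times as tall as the lowest (range over chains 1.51 to 13.5), and in 28 of 153 chains no other member reached 0.5 of its height. Of the variance in log2 height among members, 21.6% lay between chains and the rest within them, whereas in chains of 2 to 5 the share between chains was 40.3%. The tallest member was at an end of its chain in 51 of 153 chains, where a count of 45.3 would follow from the number of end places alone. Members were narrower than regions that stood alone, with a median width of 493 bp against 586 bp. This was not particular to members, since regions in chains of 2 to 5 had a median width of 515 bp. Regions in chains of 5 had 474 bp and those in chains of 6 had 508 bp.

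Members were taller than the other regions but had a lower deposited fold. Their median height was 56 and 44 tags in KO, 51 and 51 tags in del-cIDR, and 51 and 58 tags in WT. Regions that stood alone reached 29 and 22 tags in KO, 28 and 28 tags in del-cIDR, and 29 and 33 tags in WT. In each library the members therefore stood above, and over all 77384 regions outside chains of 6 or more the difference in median log2 height was 0.73 ± 0.05 (SD, n = 6 libraries; higher in 6 of 6). An exact two-sided sign-flip permutation test over the 6 libraries gave p = 0.03125, the smallest it can give. Peaks are called against a local background that tags of neighbours can raise, so a member may need more tags to be called. The lowest height in a library was 7 to 12 tags at the 1067 members and 5 or 6 tags at the 44194 lone regions. A lowest value falls as the number of regions grows, so these values are not on equal terms. The rule itself may favour taller members, which was not tested, and no conclusion is drawn from this p. Members also stood above regions in chains of 2 to 5 in every library, which had medians of 38 and 29 tags in KO, 35 and 35 tags in del-cIDR, and 36 and 41 tags in WT.

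The deposited fold is the authors' ratio of the height to a local background, which differs from region to region and was solved together with the height. Members had a median fold of 7.29 and 6.78 in KO, 7.07 and 7.02 in del-cIDR, and 7.38 and 7.65 in WT. Lone regions had 11.5 and 10.2 in KO, 11.4 and 11.2 in del-cIDR, and 11.9 and 12.4 in WT. Against all regions outside chains of 6 or more, the difference in median log2 fold was -0.49 ± 0.03 (SD, n = 6 libraries), lower in 6 of 6. This is a description with no test, because members were chosen for close neighbours, and tags of neighbours can count toward a local background. That background was higher where the fold was lower. Its median at members was 7.10 and 5.53 tags in KO, 6.16 and 6.31 tags in del-cIDR, and 5.87 and 6.43 tags in WT. At lone regions it was 1.496 and 1.18 tags in KO, 1.47 and 1.46 tags in del-cIDR, and 1.45 and 1.58 tags in WT. The order of members and other regions thus turned with the measure, and heights are used in what follows. The same steps ran along chain size, since regions in chains of 1, 2, 3, 4, 5 and 6 had a median background of 1.45, 2.63, 3.61, 4.39, 4.54 and 5.67 tags.

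**Figure D1:**
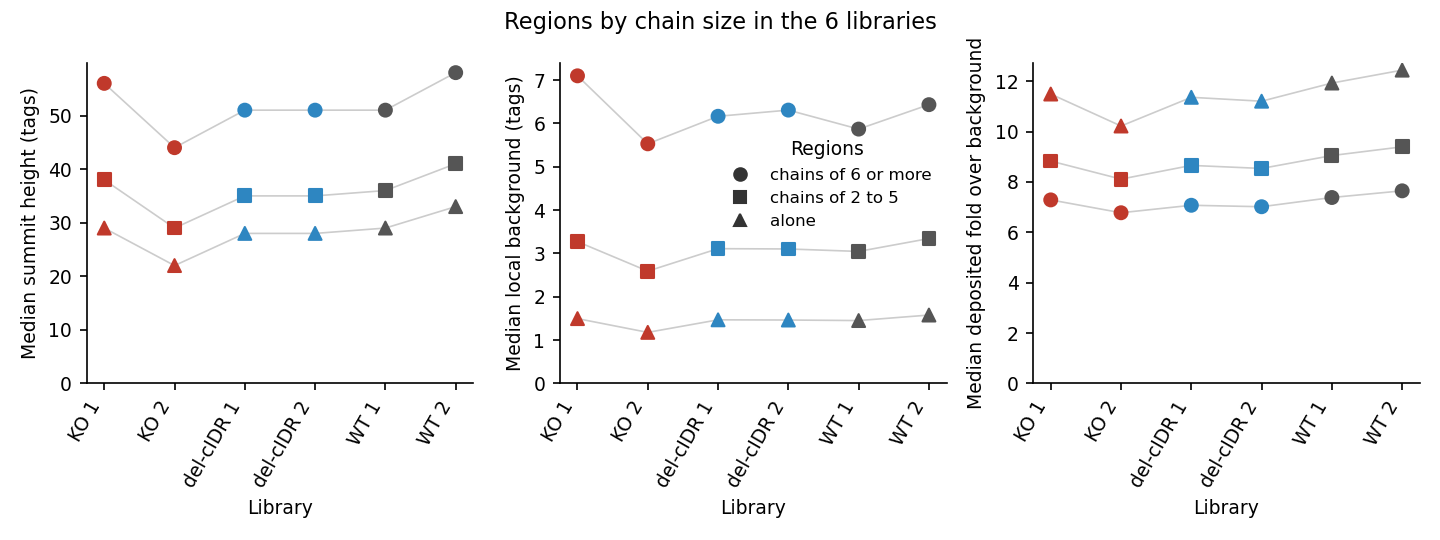
Median summit height (tags), median local background (tags) and median deposited fold (ratio) in each of the 6 libraries, for regions in chains of 6 or more (circles), in chains of 2 to 5 (squares) and alone (triangles), with KO in red, del-cIDR in blue and WT in grey. Members lie at the top for height (44 to 58 tags) and for background, and at the bottom for fold (6.78 to 7.65).

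The tallest of the 78451 regions lay outside chains of 6 or more. The tallest member had a mean height of 292 tags over the 6 libraries and the lowest 11.3 tags. Of the 77384 regions outside, 106 were taller than every member. Above 160 tags were 64 of the 1067 members and 2610 of the 77384 regions outside. The tallest member, at chr4:141297119-141297895, had 316 and 254 tags in KO, 307 and 290 tags in del-cIDR, and 261 and 323 tags in WT. The next, at chr7:12748016-12748681, had 329 and 261 tags in KO, 281 and 290 tags in del-cIDR, and 265 and 301 tags in WT. In both regions the 3 genotypes overlapped in tags.

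Of the 9 chains with 10 or more members, 4 lay at families of neighbouring genes. The longest, at chr13:22091186-22129879, had 13 members at histone genes, with median heights of 104 and 62 tags in KO, 76 and 78 tags in del-cIDR, and 80 and 84 tags in WT. Its 2 histone companions of this length lay at chr13:23922701-23948997 with 12 members and chr13:23697630-23719881 with 10. The other chain of 13, at chr18:37869669-37904834, lay at the known position of the protocadherin gamma genes, which encode cell adhesion proteins of neurons from arrayed first exons. Its members were lower, with medians of 53 and 37 tags in KO, 43 and 43 tags in del-cIDR, and 37 and 49 tags in WT.

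The other 5 of these 9 chains were spread over 5 chromosomes. The chain of 11 at chr5:134341642-134379848 lay at Gtf2i, which encodes a general transcription factor; its members ranged from 15.0 to 172 tags in mean height. The chain of 10 at chr3:95552726-95575605 lay at Mcl1, an inhibitor of apoptosis, with a tallest member of 136 tags. Chains of 11 at chr19:38013656-38043735 and chr4:140401587-140431336 were given no gene name. Their tallest members had mean heights of 228 and 124 tags.

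Several shorter chains lay at loci known from the biology of embryonic stem cells. Only loci that have a chain are named here, and stem cell genes without a chain were not counted. The names therefore do not show that chains favour such genes. The chain of 8 at chr3:34805689-34828275 lay at the Sox2 distal control region, an enhancer cluster that drives the pluripotency factor Sox2. Its tallest member, at chr3:34815264-34815766, was among the 10 tallest members, with 263 and 222 tags in KO, 219 and 226 tags in del-cIDR, and 217 and 245 tags in WT. A neighbour at chr3:34820749-34821502 had only 25 and 22 tags in KO, 18 and 18 tags in del-cIDR, and 16 and 19 tags in WT. The same chain thus held regions that differed more than 10-fold in mean height (232 and 19.7 tags).

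At the miR-290 cluster the members were more even. The lowest of the 10 had a mean height of 79.0 tags and the tallest 224 tags. The tallest, at chr7:3249828-3250459, had 217 and 172 tags in KO, 249 and 238 tags in del-cIDR, and 228 and 240 tags in WT. Both KO libraries lay below all other libraries in tags there, but on the relative scale that takes depth into account the difference of KO from WT was -0.04.

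Among genes of signalling pathways that act in embryonic stem cells, chains lay at Etv5 (9 members), a transcription factor induced by FGF signalling; at Fgf4 (6 members), the ligand itself; at Id1 and Id3 (6 members each), BMP targets that inhibit differentiation factors; at Tbx3 (8 members) and upstream of it (6 members), a pluripotency-associated T-box factor; and at Hes1 (9 members), a target of Notch. Median heights at Id3 were 142.5 and 105 tags in KO, 90 and 94.5 tags in del-cIDR, and 110.5 and 126.5 tags in WT. Median heights at Etv5 were 144 and 100 tags in KO, 118 and 119 tags in del-cIDR, and 109 and 121 tags in WT. Dppa5a, an RNA-binding protein gene of pluripotent cells, had a chain of 7 with medians of 123 and 81 tags in KO, 113 and 94 tags in del-cIDR, and 108 and 118 tags in WT. A chain of 6 lay near Pou5f1, which encodes OCT4. Loci that most cell types use were there as well, with 2 chains at the long noncoding RNAs Malat1 and Neat1. The remaining named chains lay at histone genes of chromosome 3 (6 members), at Elovl6, a fatty acid elongase (9 members), and at Hoxc genes, which pattern the body axis (6 members), which makes 24 named chains of 153.

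**Figure D2:**
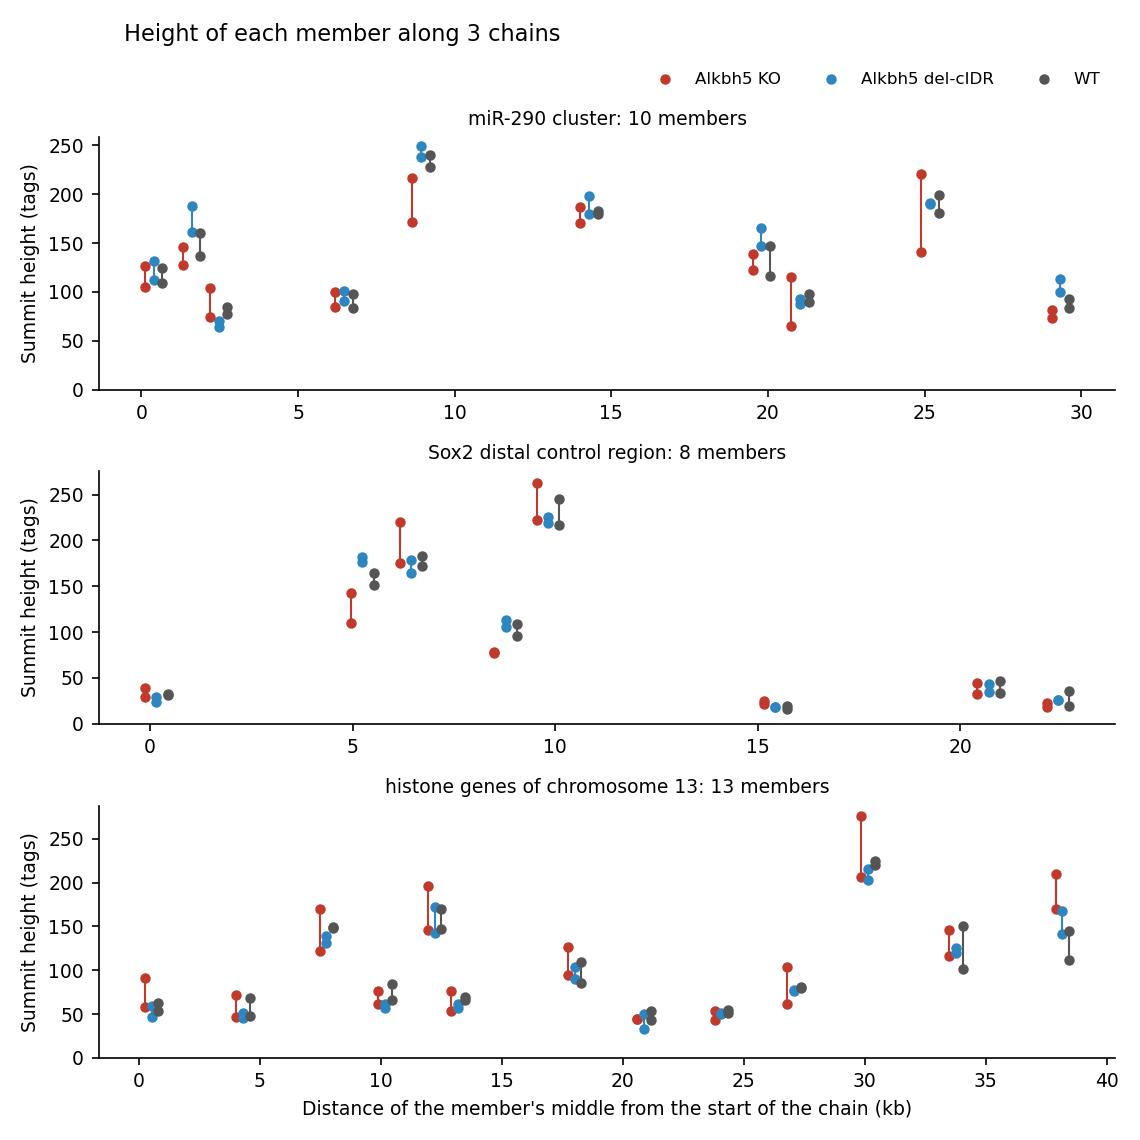
Summit height (tags) of each member against its distance from the start of the chain (kb), at the miR-290 cluster (10 members), the Sox2 distal control region (8 members) and the longest chain at histone genes (13 members). Each point is 1 library, a line joins the 2 libraries of a genotype, and KO (red), del-cIDR (blue) and WT (grey) are set side by side; members of 1 chain differ by far more than genotypes do at a member, from 19.7 to 232 tags in mean height at the Sox2 distal control region.

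Heights of members were closely ordered in the same way in all libraries. Across the 1067 members, the rank correlation of height (Spearman's rho, as a description over regions that share chains and libraries) was 0.96 between the 2 libraries of each genotype. It was 0.88 to 0.89 between KO and WT libraries, 0.94 between del-cIDR and WT libraries, and 0.89 to 0.90 between del-cIDR and KO libraries. Replicate libraries differed at a member by a median of 0.18 in KO, 0.17 in del-cIDR and 0.16 in WT on the log2 scale.

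In KO against WT, members were higher relative to their own list. Their median relative log2 height was 0.76 and 0.82 in KO libraries and 0.67 and 0.69 in WT libraries, so the groups did not overlap. The difference of the group means was 0.11, and the exact two-sided permutation test gave p = 0.333, the smallest that 2 libraries against 2 allow. Without KO replicate 1, with chains built anew from the other 5 libraries, it was 0.06, and with gaps of 2500 bp or less, which leave 19 members, it was 0.015 with overlapping groups. Of the 1067 members, 486 (45.5%) had both KO libraries above both WT libraries, against 36.5% of all 78451 regions. In the other direction, 172 members (16.1%) had both KO libraries below both WT libraries, against 22.7% of all regions. Member by member, the difference had a median of 0.16, against 0.09 over regions outside chains, and was above 0 in 70.7% of members and in 58.3% of regions outside.

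In del-cIDR against WT the difference was smaller. Median relative log2 height was 0.67 and 0.72 in del-cIDR libraries and 0.67 and 0.69 in WT libraries, a difference of 0.02 with overlapping groups (exact permutation test, two-sided, p = 1.0). Leaving out 1 library at a time gave 0.02 to 0.06, and the groups did not overlap at a −log10 q of at least 5, where it was 0.071, nor in lists of equal length, where it was 0.041 (p = 0.333 in both, exact). Both del-cIDR libraries lay above both WT libraries at 297 members (27.8%), against 23.6% of all regions. They lay below at 167 members (15.7%), against 20.1% of all regions. Member by member, the difference between del-cIDR and WT had a median of 0.05, against 0.02 over regions outside chains. It was above 0 in 60.2% of members and in 53.2% of regions outside. In del-cIDR against KO the difference was -0.09 (p = 0.333, exact): 192 members (17.99%) were higher in both del-cIDR libraries, against 22.0% of all regions, and 439 (41.1%) were lower, against 34.6%. The comparisons with WT share the WT libraries and are not independent of each other.

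The difference between KO and WT moved with the height of a region, and members are taller than other regions. In bands of mean height, chosen after seeing the data, the median difference between KO and WT at members was 0.09 at 10 to 20 tags (54 members), 0.10 at 20 to 40 tags (283 members) and 0.14 at 40 to 80 tags (455 members). It was 0.19 at 80 to 160 tags (211 members) and 0.30 above 160 tags (64 members). Regions outside chains had 0.03, 0.00, 0.11, 0.23 and 0.34 in the same bands. Members thus lay above the outside regions of like height in the 3 lower bands and below them in the 2 upper bands. For del-cIDR against WT, members had -0.03, 0.00, 0.05, 0.09 and 0.13, and outside regions -0.01, -0.03, 0.03, 0.09 and 0.13. At 10 tags or less, where no member lay, 845 outside regions had 0.16 for KO against WT and 0.11 for del-cIDR against WT. The difference at outside regions thus did not rise steadily with height. The part that height has in the difference over all members was not tested.

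**Figure D3:**
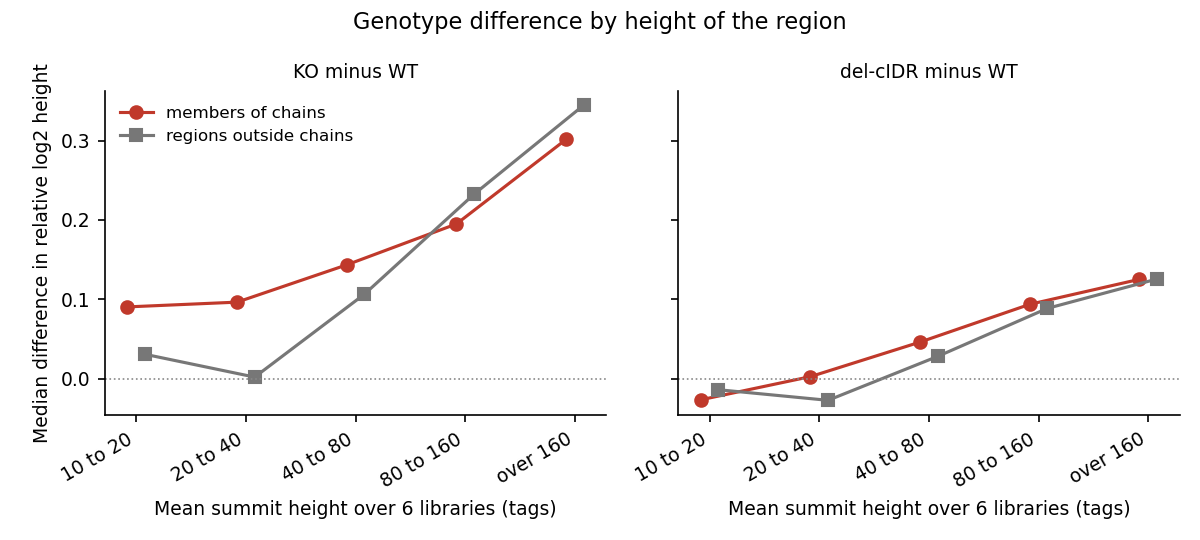
Median difference in relative log2 height between KO and WT (left) and between del-cIDR and WT (right) in bands of mean summit height (tags), for members of chains of 6 or more (red circles) and regions outside them (grey squares). In both comparisons the difference is greatest above 160 tags, 0.30 at members and 0.34 outside for KO minus WT.

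By chain, the median over members of the difference between KO and WT was above 0 in 124 of 153 chains, ranged from -0.41 to 0.94 and had quartiles of 0.05 and 0.27. All members were above 0 in 26 chains and none in 2. For del-cIDR against WT, 110 of 153 chains had a median above 0, with quartiles of -0.01 and 0.11. Of all 78451 single regions, 58.4% were above 0 for KO against WT and 53.3% for del-cIDR against WT. A chain median and a single region are not like measures, so these shares cannot be compared directly. Among members, 15.8% of the variance of the difference between KO and WT lay between chains, and 10.1% for del-cIDR against WT. In chains of 2 to 5 these shares were 23.1% and 11.8%. The rest of the variance includes the spread between replicate libraries. These shares therefore do not show whether members of 1 chain move together.

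The 50 members at the histone genes of chromosome 13 had a median difference between KO and WT of 0.27. Of the 50, 46 were above 0, against 58.4% of all 78451 regions. Both KO libraries lay above both WT libraries at 34 of the 50, and below them at 2, against 36.5% and 22.7% of all 78451 regions. In each of the 5 chains the median was between 0.24 and 0.28. These members were tall, with library medians of 67.5 to 92 tags. Regions outside chains had a median difference between KO and WT of 0.11 at 40 to 80 tags and 0.23 at 80 to 160 tags. The part that height has at the histone genes was not tested. For del-cIDR against WT the median of the 50 members was 0.04, with 34 of 50 above 0, against 53.3% of all regions. In the longest of these chains all 13 members were above 0 in KO; at its last member, chr13:22128848-22129879, heights were 210 and 170 tags in KO, 142 and 168 tags in del-cIDR, and 112 and 145 tags in WT.

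Among the other named loci, the chain at Etv5 had the highest median difference between KO and WT, 0.41 (8 of 9 members above 0), and the chain at Mcl1 the lowest, -0.10 (2 of 10 above 0). At Id1, all 6 members were above 0 in KO, with a median of 0.31, whereas in del-cIDR 1 of 6 was above 0 and the median was -0.17. Id1's member at chr2:152581280-152581618 had 59 and 35 tags in KO, 31 and 21 tags in del-cIDR, and 28 and 33 tags in WT. Id3 had medians of 0.13 in KO and -0.18 in del-cIDR against WT. The miR-290 chain had 0.18 in KO and 0.17 in del-cIDR (9 of 10 members above 0 in each), and the Sox2 distal control region 0.23 in KO and 0.08 in del-cIDR. At Tbx3, a low member at chr5:119832912-119833334 had 38 and 41 tags in KO, 33 and 28 tags in del-cIDR, and 13 and 17 tags in WT. There both mutants lay above both WT libraries, by 1.65 in KO and 1.14 in del-cIDR on the relative log2 scale. Over all 78451 regions, 58.4% were above 0 in KO and 53.3% in del-cIDR against WT. None of these chains was tested, since 2 libraries against 2 allow no p below 0.333.

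**Figure D4:**
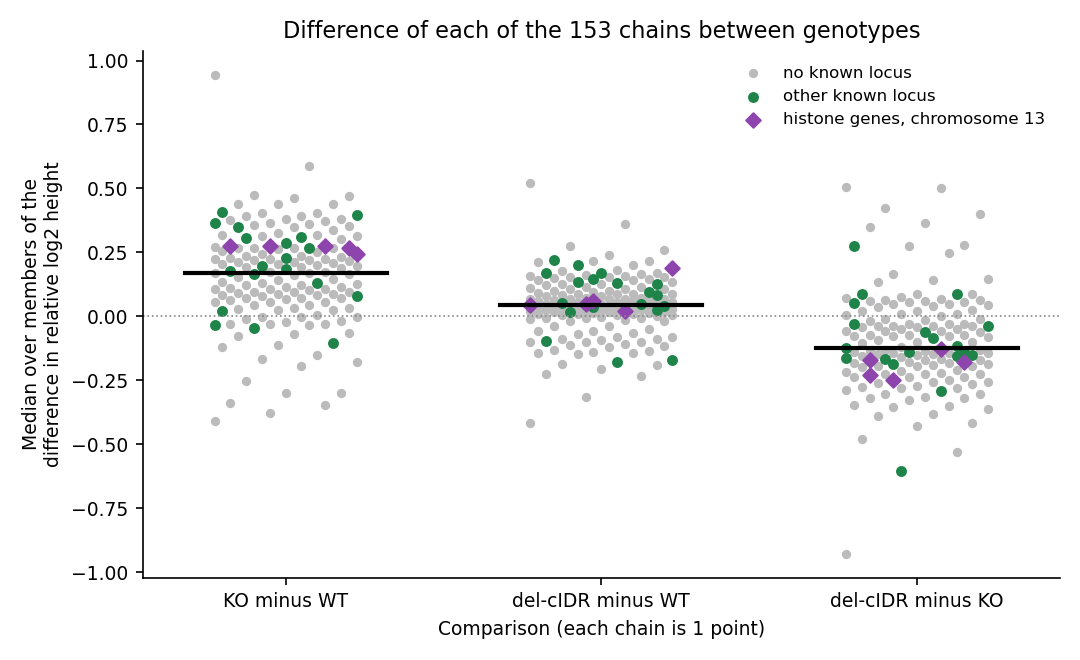
Median over the members of a chain of the difference in relative log2 height, for KO minus WT, del-cIDR minus WT and del-cIDR minus KO, with 1 point per chain. Purple diamonds are the 5 chains at histone genes of chromosome 13, green points other known loci and grey points the rest. The black line is the median over chains. In KO minus WT 124 of 153 chain medians lie above 0. Of single regions, 70.7% of members and 58.4% of all 78451 are above 0, a measure that cannot be compared directly with chain medians.

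Etv5 and Mcl1 stood at the ends of the named chains whose genes have a promoter in the table, and their promoters (RefSeq, GRCm38.p6, 250 bases before to 50 after the start) are shown for that reason. Capitals mark 3 motifs on either strand: the CCAAT box, which 37.4% of all promoters in the table hold, the GC box (letters GGGCGG), which 35.7% hold, and the TATA letters named above.
Etv5: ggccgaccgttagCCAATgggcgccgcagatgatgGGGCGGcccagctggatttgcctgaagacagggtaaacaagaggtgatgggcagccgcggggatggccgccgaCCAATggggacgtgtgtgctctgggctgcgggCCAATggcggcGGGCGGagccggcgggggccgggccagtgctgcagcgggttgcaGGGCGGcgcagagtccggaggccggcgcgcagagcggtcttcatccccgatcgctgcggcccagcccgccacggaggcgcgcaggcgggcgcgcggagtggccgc
Mcl1: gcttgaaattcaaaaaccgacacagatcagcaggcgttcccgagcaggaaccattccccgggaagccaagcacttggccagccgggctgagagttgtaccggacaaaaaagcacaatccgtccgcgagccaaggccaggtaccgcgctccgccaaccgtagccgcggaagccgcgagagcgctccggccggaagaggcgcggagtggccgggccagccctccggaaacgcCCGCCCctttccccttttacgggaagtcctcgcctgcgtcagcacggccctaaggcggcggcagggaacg
The Etv5 promoter held 3 CCAAT and 3 GGGCGG matches and the Mcl1 promoter 1 GGGCGG match and no CCAAT, with 74.0% and 65.7% of their bases G or C. Whether a member overlaps either promoter was not tested.

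The chains that differed most between genotypes had no gene name here and were picked for their difference, so their values are a description. For KO against WT, the highest median, 0.94, was at chr2:20927973-20949393, where 7 of 8 members were above 0. Its last member, at chr2:20948741-20949393, had 151 and 143 tags in KO, 61 and 60 tags in del-cIDR, and 52 and 59 tags in WT, and its tallest, at chr2:20939192-20939736, had 160 and 142 tags in KO, 103 and 103 tags in del-cIDR, and 96 and 107 tags in WT. One member of the same chain went the other way, at chr2:20929830-20930059, with 23 and 16 tags in KO, 30 and 22 tags in del-cIDR, and 28 and 25 tags in WT. The second highest, 0.59, was at chr14:122492852-122509310. The lowest medians were -0.41 at chr15:80100011-80118593 and -0.38 at chr5:146848936-146863982, where 0 of 6 members were above 0.

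The chain on chromosome 15 mixed both directions. Its member at chr15:80104383-80104762 had 33 and 26 tags in KO, 35 and 32 tags in del-cIDR, and 58 and 61 tags in WT. Its tallest, at chr15:80117791-80118593, had 306 and 233 tags in KO, 216 and 248 tags in del-cIDR, and 212 and 266 tags in WT. These members thus differed in sign, with -0.78 at the lower member and 0.41 at the tallest on the relative log2 scale between KO and WT.

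For del-cIDR against WT the highest median, 0.52, was at chr13:63710881-63721685, where 7 of 7 members were above 0; the same chain had 0.48 in KO. Its first member, at chr13:63710881-63711322, had 77 and 67 tags in KO, 62 and 47 tags in del-cIDR, and 36 and 40 tags in WT. The lowest, -0.42, was at chr12:76912691-76942936, where 0 of 8 members were above 0 in del-cIDR and 4 of 8 in KO. Its tallest member, at chr12:76930507-76931412, had 151 and 134 tags in KO, 117 and 102 tags in del-cIDR, and 143 and 156 tags in WT.

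Spans of chains also held 181 regions that were not called in all 6 libraries. They were found in 105 chains, at most 5 in a chain, and 48 chains had none. KO libraries called 81 and 46 of the 181, del-cIDR libraries 77 and 78, and WT libraries 111 each. Those that both KO libraries called and no WT library did numbered 6 (3.31%, exact 95% binomial interval 1.23 to 7.08%). The share was 2.52% over the 127272 partly called regions on the same chromosomes. Those that both WT libraries called and no KO library did numbered 33 (18.2%, 12.9 to 24.6%), against 12.6%. The intervals treat regions as independent, although regions share chains and libraries, so they do not test a genotype difference. In del-cIDR but not WT there were 4 (2.21%), against 1.53%, and in WT but not del-cIDR 20 (11.05%), against 8.60%. In del-cIDR but not KO there were 17 (9.39%), against 6.28%, and in KO but not del-cIDR 7 (3.87%), against 4.71%. A region called in only 1 library cannot show any of these patterns. Such regions were 29.8% of the 181 inside spans and 40.6% of all 127272, so shares inside spans can be higher by construction. No genotype result is read from these shares. The WT lists are the longest, and a list can lack a region that is open but too weak to be called.

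The tallest of these, by its mean over the lists that called it, lay inside the miR-290 chain at chr7:3252591-3253084, with 42 tags in KO replicate 1 and no call in KO replicate 2, 100 and 86 tags in del-cIDR, and 70 and 85 tags in WT. A further region of that chain, at chr7:3267450-3268554, had no call in either KO library, 66 and 53 tags in del-cIDR, and 75 and 67 tags in WT. Both sat at the locus where the called members were above 0 in KO at 9 of 10.

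When the same spacing rule was run on each list alone, an alternative added after seeing the data, the mutant lists, which are shorter, gave fewer chains than the WT lists. KO lists gave 991 and 573 chains, del-cIDR lists 977 and 915, and WT lists 1681 and 1893. With every list cut to its 150680 strongest peaks, KO lists gave 743 and 573 chains, del-cIDR lists 804 and 790, and WT lists 831 and 873. This cut was over all mouse sequences, so the lists were still unequal on the 16 autosomes used. There KO lists held 117073 and 116779 peaks, del-cIDR lists 120909 and 120859, and WT lists 120986 and 120428. KO averaged 658 ± 120 and WT 852 ± 29.7 chains at equal length (SD, n = 2 libraries each), a ratio of 0.772 against 0.438 with full lists; the groups did not overlap in either case, with p = 0.333 in the exact permutation test. For del-cIDR the ratio to WT was 0.935 at equal length and 0.529 with full lists, also with p = 0.333 (exact). KO replicate 2 was the shortest list and had the fewest chains.

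**Figure D5:**
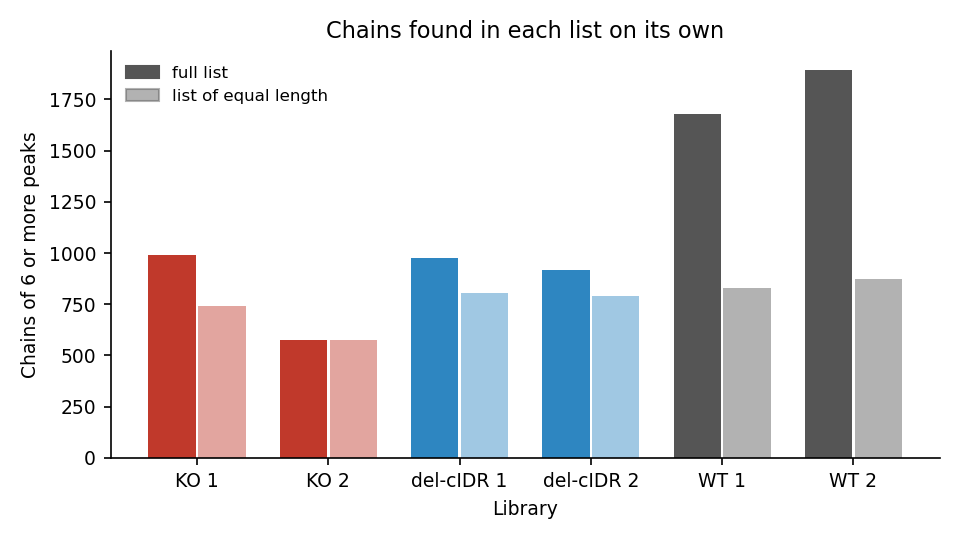
Number of chains of 6 or more peaks found in each of the 6 lists on its own, with the full list (dark bars) and with every list cut to the same number of peaks (light bars), for KO (red), del-cIDR (blue) and WT (grey). WT has 1681 and 1893 chains with full lists and 831 and 873 at equal length.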

How the data were processed

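ATAC-seq peak lists of 6 libraries (Alkbh5 KO, Alkbh5 del-cIDR and WT, 2 each, grouped by sample titles) were used. Per the submitters' processing notes, the authors used fastp, BWA, SAMtools, Picard, MACS2 and featureCounts with build GRCm39; their versions and settings, and whether reads were shifted to the cut site, were not given in the sources used here. Peaks were deposited per library, without pooling. The deposited fold is a ratio of summit pileup to local background, and the deposited significance is −log10 of p and q; no list holds a q above 0.05. The score the authors deposited is the −log10 q times 10, rounded down, for at least 99.9% of peaks, and was not used. These values are the authors' own, per peak and per list.

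Pileup and background were solved from fold and p with the Poisson form that MACS2 uses; the pileup was whole within 0.1 tags in 100% of 1016776 peaks. Spike-in peaks (1104 to 2082 per list) were left out. Peaks overlapping by 1 bp or more were merged, the tallest peak of a list gave its height in a region, and chains were built as described. Calculations used Python 3.11.15, numpy 2.4.6, pandas 2.3.3 and scipy 1.17.1, and were checked on simulated data. Exact tests used libraries as units: 6 sign flips allow no two-sided p below 0.03125, and 2 against 2 libraries none below 0.333. Intervals cover counting error only. The same-numbered libraries were checked for pairing: their deviations from the group means correlated at 0.00 for KO and WT, -0.01 for del-cIDR and WT, and 0.01 for del-cIDR and KO.

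The members and all lists were chosen with earlier results of these data known. The chains named were the 12 with most members, chains at known loci (in place of a planned gene list, which needs an annotation), and the 3 highest and lowest per mutant against WT, 40 in all. All 28 genes behind the names were found in a RefSeq table of another build (GRCm38.p6) on the chromosome of their chain; 16 have a promoter there. Because builds differ, shares of members at promoters, gene lists near chains, motifs under summits and marker promoters were not run.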

Additional observations from a re-analysis of the deposited data

How the results depend on the processing

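Against all regions outside chains, and against those that stand alone, members were taller in every alternative run (log2 difference 0.47 to 1.17), and their fold was lower than outside chains (-1.02 to -0.20). The number of chains followed the rule itself. It was 3 (19 members) with gaps of 2500 bp, 1736 (14309 members) with 10000 bp, 1228 (5620 members) with at least 4 members, 9 (101 members) with at least 10, 93 (649 members) for peaks with a −log10 q of at least 5, and 702 (4912 members) for regions called in at least 4 libraries. Shares over fewer than 20 regions were not computed, which leaves out gaps of 2500 bp, and members that do not overlap between groups were not computed for regions called in at least 4 libraries.

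Differences in relative height changed sign in 2 cases: del-cIDR minus KO was 0.014 with gaps of 2500 bp, and del-cIDR minus WT was -0.0085 with gaps of 10000 bp; the cause was not tested. With gaps of 2500 bp, KO minus WT was 0.015 with overlapping groups (p = 1.0, exact). For del-cIDR minus WT the groups did not overlap (p = 0.333, exact) with at least 10 members (0.049), the stricter −log10 q (0.071), lists of equal length (0.041), regions called in at least 4 libraries (0.047) and scaling to regions outside chains (0.038). For del-cIDR minus KO the values were -0.038 at the stricter −log10 q (groups overlapped, p = 0.667, exact), -0.048 with lists of equal length and -0.033 for regions called in at least 4 libraries.

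Shares of members that did not overlap are given with the share over all regions under the same setting. KO above WT was 41.5% (all regions 36.5%) with gaps of 10000 bp and 41.9% (all regions 36.5%) with at least 4 members, and KO below WT 19.6% (all regions 22.7%), 18.6% (all regions 22.7%) and, with at least 10, 9.90% (all regions 22.7%). For del-cIDR above WT it was 35.6% (all regions 23.6%) with at least 10 members, 33.1% (all regions 28.1%) at the stricter −log10 q and 31.1% (all regions 25.8%) with lists of equal length. For del-cIDR below WT it was 19.9% (all regions 20.1%) with gaps of 10000 bp, 18.5% (all regions 20.1%) with at least 4 members, 8.91% (all regions 20.1%) with at least 10 and 12.6% (all regions 18.3%) at the stricter −log10 q. For del-cIDR above KO it was 20.8% (all regions 21.98%) with at least 10 members and 22.03% (all regions 23.7%) at the stricter −log10 q, and for del-cIDR below KO 37.9% (all regions 34.6%) with at least 4 members, 35.7% (all regions 32.2%) at the stricter −log10 q and 37.8% (all regions 31.9%) with lists of equal length. With at least 10 members there were only 25 partly called regions, of which 3 (12%, all 12.6%) were in WT and not KO, 1 (4%, all 6.28%) in del-cIDR and not KO, and 0 (0%, all 4.71%) in KO and not del-cIDR. In del-cIDR and not KO were 16.7% (all regions 8.65%) at the stricter −log10 q and 2.73% (all regions 3.19%) for regions called in at least 4 libraries.

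Leaving out 1 library at a time gave 158 to 217 chains, a height difference of 0.64 to 0.74 and a fold difference of -0.49 to -0.46 (log2); 5 libraries allow no exact p below 0.0625, so the height test falls short by construction. Relative height differed by 0.06 to 0.13 for KO minus WT, 0.02 to 0.06 for del-cIDR minus WT and -0.09 to -0.04 for del-cIDR minus KO. With 1 library in a group, fewer libraries have to be ordered, so shares can rise by construction, and those above 1.5 times the value with all libraries all came from leaving out a library of a compared genotype (each of the 6 in turn). The shares over all regions moved too and stand in parentheses: for KO against WT the ranges were 42.3 to 56.7% (34.7 to 47.1%) above and 17.3 to 27.7% (23.6 to 35.4%) below, for del-cIDR against WT 28.3 to 47.9% (23.8 to 42.7%) and 14.7 to 27.4% (18.2 to 32.5%), and for del-cIDR against KO 19.3 to 34.3% (23.4 to 37.3%) and 38.8 to 49.2% (32.4 to 42.97%). Partly called regions ranged over 3.02 to 12.97% (2.68 to 11.2%) for KO and not WT, 18.1 to 34.6% (13.4 to 31.8%) for WT and not KO, 2.09 to 7.54% (1.67 to 7.93%) for del-cIDR and not WT, 11.2 to 25.7% (9.34 to 27.2%) for WT and not del-cIDR, 9.94 to 23.4% (6.89 to 16.6%) for del-cIDR and not KO and 4.57 to 14.6% (5.17 to 16.7%) for KO and not del-cIDR.

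With the replicate number as a block, the differences were 0.11 (KO minus WT), 0.02 (del-cIDR minus WT) and -0.09 (del-cIDR minus KO), as without it, and 2 pairs allow no p below 0.5; same-numbered libraries were not paired by their deviations. Gene-based results were not run. Weak regions are limited by depth: the lowest called peaks have 5 or 6 tags.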

Other observations

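The same rule on the chromosomes it leaves out, added after seeing the data, gave 11 chains with 72 members on chromosome 6, 13 with 84 on chromosome 8, 27 with 180 on chromosome 11 and 2 with 12 on the X chromosome. On chromosome 6 these members had median relative log2 heights of 0.90 and 0.86 in KO, 0.27 and 0.40 in del-cIDR, and 0.43 and 0.29 in WT. On chromosome 8 they had 1.18 and 1.16 in KO, 0.60 and 0.58 in del-cIDR, and 0.64 and 0.74 in WT. The median difference between KO and WT was 0.52 at members and 0.38 at the other regions of chromosome 6, and 0.48 at members and 0.31 at the other regions of chromosome 8. It was 0.18 at members and 0.15 at the other regions of chromosome 11, and 0.02 at members and 0.04 at the other regions of the X chromosome.

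Chains built from the 2 lists of 1 genotype numbered 307 in KO, 454 in del-cIDR and 872 in WT with full lists, and 285 in KO, 409 in del-cIDR and 470 in WT with lists of equal length.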
